A study of Mus musculus with 6 samples.

Results

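Open chromatin that recurs inside genes, away from gene ends, was described in long-term haematopoietic stem cells of the mouse. Peaks of chromosomes 1 to 19 were merged over 6 ATAC-seq peak lists wherever they overlapped by at least 1 bp, which gave 844567 regions. A region was taken when 5 or 6 lists called it, when it overlapped the body of a protein-coding gene, and when it lay more than 5 kb from every end of every protein-coding gene. The rule took 4253 regions, of which 1562 were called in all 6 lists and 2691 in 5. They are called gene-body regions below, and the genes they lie in are called hosts. They made up 1.35% of the 314784 merged regions in the same position, while 2.2% of all merged regions were called in 5 or 6 lists. Calls chose the gene-body regions, so the calls are described and not tested.

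The study profiled 3 aged and 3 young samples from C57BL/6 mice with ATAC-seq, an assay in which a transposase inserts sequencing adapters into accessible DNA. In both ages the cells were sorted as Lin-, cKit+, Sca1+, Flk2- and Cd34-, the gate for long-term haematopoietic stem cells, and were then held overnight in 3% oxygen. Each sample has 1 peak list, in mm10 coordinates. Neither the animals' sex nor their age in weeks is labelled. Nor is it labelled that samples of the same age are separate animals, and p-values therefore measure a spread between lists that may be technical. Read depth is not given in the sources used here.

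Accessible DNA within genes commonly holds enhancers, stretches bound by transcription factors that act on a promoter at a distance, and it also holds alternative promoters, from which shorter transcripts of the same gene start. In blood stem cells, factors of the RUNX, ETS, GATA and MEIS families act through many such elements. Runx1, which is needed for blood stem cells to form, is a textbook case, since it is read from a distal and a proximal promoter.

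RefSeq annotates starts inside many hosts, and a window of 300 bases around each was at hand for the hosts of 3397 of the 4253 gene-body regions. A region was counted at an internal start when it overlapped such a window by at least 1 base. This held for 435 regions, which are 10.2% of all 4253 (95% Wilson interval 9.35 to 11.2) and 12.8% of the 3397 (11.7 to 14.0), and 427 of them contained the start base itself. Among the stem-cell transcription factor genes, 6 had such a region: Elf1, Erg, Foxp1, Mecom, Runx1 and Runx3. Their windows are shown because the called regions overlap them, in part or in whole. The window of Srrm2 is shown with them, and its region had a lowest rank over the lists of 99.4 on a scale of 100. Each window runs 5′ to 3′ on the gene's strand from 250 bases before the start to 50 after it, from the RefSeq table of GRCm38.p6 (the patched form of mm10). Capitals mark matches, on either strand, to the GC box GGGGCGG of SP and KLF factors, the GATA motif AGATAA or the AP-1 motif TGACTCA.
Elf1 (chr14:79515424-79515723, plus strand): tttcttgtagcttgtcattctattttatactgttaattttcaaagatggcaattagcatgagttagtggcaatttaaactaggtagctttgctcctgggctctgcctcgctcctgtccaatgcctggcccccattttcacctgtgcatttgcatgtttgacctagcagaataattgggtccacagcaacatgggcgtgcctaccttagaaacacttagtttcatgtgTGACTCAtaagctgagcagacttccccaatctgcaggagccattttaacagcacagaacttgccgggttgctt
Erg (chr16:95459299-95459598, minus strand): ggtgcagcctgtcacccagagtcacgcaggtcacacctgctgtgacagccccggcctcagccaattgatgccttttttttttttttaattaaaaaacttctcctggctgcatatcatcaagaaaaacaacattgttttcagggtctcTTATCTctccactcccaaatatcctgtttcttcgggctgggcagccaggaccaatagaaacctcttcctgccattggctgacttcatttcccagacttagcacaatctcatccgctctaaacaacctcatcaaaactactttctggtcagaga
Foxp1 (chr6:99028249-99028548, minus strand): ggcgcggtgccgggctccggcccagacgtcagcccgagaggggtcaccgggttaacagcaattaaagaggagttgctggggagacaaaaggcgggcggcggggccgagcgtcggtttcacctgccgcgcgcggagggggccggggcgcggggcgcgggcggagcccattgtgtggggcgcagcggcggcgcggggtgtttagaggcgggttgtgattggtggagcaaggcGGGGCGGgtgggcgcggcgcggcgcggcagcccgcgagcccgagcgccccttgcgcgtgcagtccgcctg
Mecom (chr3:30013155-30013454, minus strand): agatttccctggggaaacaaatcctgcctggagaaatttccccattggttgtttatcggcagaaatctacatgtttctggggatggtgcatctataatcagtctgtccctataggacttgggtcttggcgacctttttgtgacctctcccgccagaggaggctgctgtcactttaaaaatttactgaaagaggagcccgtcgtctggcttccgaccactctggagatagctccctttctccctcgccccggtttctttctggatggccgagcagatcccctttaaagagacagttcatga
Runx1 (chr16:92697280-92697579, minus strand): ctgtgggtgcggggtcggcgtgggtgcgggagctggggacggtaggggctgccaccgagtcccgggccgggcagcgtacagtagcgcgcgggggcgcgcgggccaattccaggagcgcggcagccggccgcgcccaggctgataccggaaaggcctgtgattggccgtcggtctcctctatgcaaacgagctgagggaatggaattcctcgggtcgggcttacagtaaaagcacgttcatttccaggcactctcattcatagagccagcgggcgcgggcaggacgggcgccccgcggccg
Runx3 (chr4:135152295-135152594, plus strand): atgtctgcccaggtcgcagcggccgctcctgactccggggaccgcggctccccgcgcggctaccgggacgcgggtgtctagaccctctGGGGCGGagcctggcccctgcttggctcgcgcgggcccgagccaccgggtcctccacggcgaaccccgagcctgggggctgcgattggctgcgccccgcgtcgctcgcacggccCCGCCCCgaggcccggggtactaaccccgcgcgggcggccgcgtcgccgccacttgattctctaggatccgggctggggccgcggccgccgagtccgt
Srrm2 (chr17:23802937-23803236, plus strand): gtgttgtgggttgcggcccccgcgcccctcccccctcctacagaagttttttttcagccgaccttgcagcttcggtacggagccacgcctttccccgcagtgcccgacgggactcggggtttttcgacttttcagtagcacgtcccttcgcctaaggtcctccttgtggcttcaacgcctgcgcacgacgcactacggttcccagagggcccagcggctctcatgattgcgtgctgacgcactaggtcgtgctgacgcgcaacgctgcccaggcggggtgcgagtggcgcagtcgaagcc
The windows fell into GC-rich and GC-poor sequence. Those of Runx3, Foxp1, Runx1 and Srrm2 held 77.3%, 75.3%, 69% and 64% G and C, and those of Mecom, Erg and Elf1 held 49.7%, 46% and 44.7%. The GC box was matched in the windows of Runx3 and Foxp1, the GATA motif in that of Erg and the AP-1 motif in that of Elf1. The windows of Runx1, Mecom and Srrm2 held none of these letters, nor the RUNX motif TGTGGT, the ETS motif CCGGAAGT, the E-box CACGTG or the CRE TGACGTCA, all searched on both strands. None of the searched motifs contains another.

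Start windows that a gene-body region overlapped were set beside those that none did. Of the windows of 2053 annotated internal starts that lie over 5 kb from gene ends, 500 (24.4%) overlapped a gene-body region, and 489 of these had the start base inside it. The overlapped windows had a median of 62.3% G and C and 20 CG dinucleotides, against 51% and 5 in the 1553 windows that no gene-body region overlapped, and 57% and 14 in all 20085 windows of autosomal protein-coding genes. The GC box was in 42.2% of the overlapped windows, in 15.1% of the others inside genes and in 31.4% of all windows. The ETS motif was in 5%, 0.837% and 5.28% of the same sets. The RUNX motif was in 14.6%, 18.7% and 14.8%, the GATA motif in 5.2%, 11.7% and 9.57%, and the AP-1 motif in 5.8%, 5.99% and 4.70%. Overlapped windows were thus richer in CG and GC boxes than the others inside genes, and GATA letters were less frequent in them. A match is a description of the letters and not of a bound site.

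The peak summits were then placed against these starts. Where a region overlapped the windows of several starts, the start nearest its summit was used. Across the 435 regions, the median summit lay at -43.5 bp from the annotated start, that is upstream of it. In 299 regions (68.7%) the summit lay within 100 bp of the start. Overlap with the windows chose these regions, and the windows reach further upstream of a start than downstream. The closeness and the upstream lean are thus partly given by the grouping and were not tested. Of the regions called in all 6 lists, 243 of 1562 (15.6%) were at an internal start, against 192 of 2691 (7.13%) of those called in 5. Among the 268509 regions in the same position that 1 list alone called, 322 (0.120%) overlapped such a window. Median widths were 677.5, 560 and 186 bp for regions called in 6 lists, in 5 and in 1. Wider regions overlap a window more readily, and the shares were not adjusted for width. The start window of a long non-coding RNA was overlapped by 97 gene-body regions (2.28%), and 36 of these were among the 435.

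The strength of a region in a list was its percentile, the rank of its −log10 p among all autosomal peaks of that list, where a high value marks a strong peak. In the aged lists (replicates 1, 2 and 3) the 435 regions at internal starts had median percentiles of 95.9, 93.1 and 92.8, and the other gene-body regions had 93.8, 88.5 and 83.7. In the young lists (replicates 1, 2 and 3) they had 96.6, 73.1 and 92.2, and the other gene-body regions had 94.2, 73.1 and 86.2. Regions at internal starts thus ranked higher in 5 of 6 lists and tied in young replicate 2, where many peaks share the same p-value. The mean difference was 4.04 ± 3.24 percentile points (SD over 6 lists), with an exact 2-sided sign-flip permutation p of 0.0625 and 0.0938 after Benjamini-Hochberg adjustment over 3 measures. Their peaks were wider in 6 of 6 lists, by 106 ± 70.7 bp (448.7 against 342.5 bp on average; exact permutation p = 0.03125, adjusted 0.0938). With 6 lists the smallest p this test can give is 0.03125, and neither difference passed 0.05 after adjustment. Both comparisons were chosen after values had been seen. A wider region overlaps a start window more readily, so the width difference is partly given by the grouping.

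**Figure D1:**
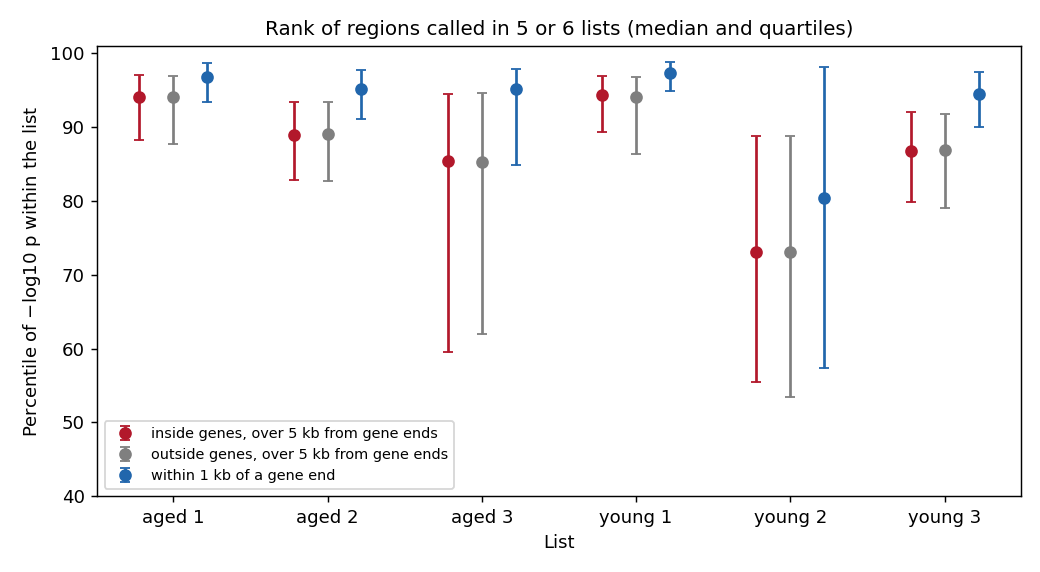
Percentile of −log10 p within each list (y axis) for shared gene-body regions (red), shared regions outside genes and over 5 kb from gene ends (grey) and shared regions within 1 kb of a gene end (blue). Points are medians and bars run between the quartiles over regions. The red medians lie between 73.1 (young 2) and 94.4 (young 1), below the blue ones in each list.

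Gene-body regions were strong peaks in most lists but not in all. They were called 4182, 4237 and 3231 times in aged replicates 1, 2 and 3, and 4171, 2770 and 4236 times in young replicates 1, 2 and 3. Aged replicate 3 and young replicate 2 thus accounted for most missing calls: 1022 regions were missing in aged replicate 3 alone and 1483 in young replicate 2 alone, against 16 to 82 in each of the other lists. Calls in 4 of the 5 remaining lists gave 7619 regions without aged replicate 3 and 7428 without young replicate 2. Median percentiles were 94.0, 89.0 and 85.4 in the aged lists and 94.4, 73.1 and 86.8 in the young lists. The share of called regions above the 90th percentile was 69.3%, 44.9% and 42.4% in the aged lists and 72.0%, 22.2% and 34.2% in the young ones. Some regions were weak even so, since 2.64% to 17.0% of those called in an aged list and 2.95% to 23.7% of those called in a young list lay under its 50th percentile.

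Shared regions at gene ends, within 1 kb of an annotated end, were chosen by the same calls and differ in position. Their median percentiles were 96.7, 95.1 and 95.2 in the aged lists and 97.4, 80.4 and 94.5 in the young lists. Gene-body regions therefore ranked lower in 6 of 6 lists, by 6.08 ± 2.75 percentile points (SD over lists; exact sign-flip permutation p = 0.03125, 0.0938 after adjustment over 6 class comparisons). Their peaks were narrower in 6 of 6 lists, with medians of 351, 461 and 263 bp in the aged lists and 351, 263 and 412 bp in the young ones, against 470, 699 and 381 bp and 492, 308 and 639.5 bp at gene ends. This difference averaged -148 ± 73.2 bp (exact permutation p = 0.03125, adjusted 0.0938). The adjusted values miss 0.05 in a design where 0.03125 is the smallest unadjusted p. The classes also differ in how often all lists agreed, since 36.7% of the 4253 gene-body regions and 64.2% of the 8701 shared gene-end regions were called in 6 lists. Among regions called in all 6, the percentile difference was -5.34 and the width difference -133 bp.

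Gene-body regions were then set against the 3611 shared regions outside genes and over 5 kb from every gene end, and no measure differed by more than its spread over the lists. The difference was 0.0448 ± 0.134 percentile points (exact permutation p = 0.5, adjusted 0.75) and 0.833 ± 5.42 bp of peak width (p = 0.78125, adjusted 0.781), higher in 2 and in 3 of 6 lists. The median distance of a list's summit from the median summit of the other lists was 33, 24 and 43 bp in aged lists and 37, 78 and 23.5 bp in young lists. It differed by 1.58 ± 2.11 bp from that at gene ends and by 0.833 ± 2.44 bp from that outside genes (exact permutation p = 0.125 and 0.6875, adjusted 0.25 and 0.781).

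Merged gene-body regions were 228 to 2039 bp wide, with a median of 603 bp, and 314 exceeded 1000 bp. Regions called in 6 lists had a median of 677.5 bp and those called in 5 had 560 bp, against 466 bp for the 4103 regions called in 4, just outside the rule. The median of the mean percentile was 88.0, 81.8 and 74.4 in the same groups. At the distance limit, 215 shared regions lay 5 to 6 kb from the nearest end with a median mean percentile of 85.4, and 227 lay 4 to 5 kb from it with 86.5. The 5 widest lay in Mllt10 (2039 bp), a gene fused to others in leukaemia, Map3k1 (1990 bp), a MAP kinase kinase kinase, Nr3c1 (1941 bp), the glucocorticoid receptor, Baz1a (1849 bp), a chromatin remodelling subunit, and Zfp992 (1730 bp), a zinc-finger gene. A merged width grows with the number of lists that call a region, because each adds its own boundaries. The widest regions of Mllt10 and Map3k1 covered an annotated internal start.

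The 10 regions with the highest lowest percentile lay in Lrmda, Evi5, Plec, Srrm2, Mesd, Zswim6, Por, Nfia, Agpat3 and Hdac4. Lrmda, a gene named for melanocyte differentiation, held one that ranked at 99.996, 99.7 and 99.9 in the aged lists and 99.97, 99.9 and 99.6 in the young ones (chromosome 14, 22183147 to 22183702, 163643 bp from the nearest gene end). Evi5 encodes a regulator of Rab GTPases, and its region ranked at 99.9, 99.7 and 99.7 in the aged lists and 99.96, 99.6 and 99.8 in the young ones (chromosome 5, 107759022 to 107759702). No value of these 10 was under 99.0. That they were strong in every list, aged and young, was fixed by this choice. Those in Srrm2, a splicing factor, Mesd, a chaperone of lipoprotein receptors, Por, the reductase of cytochromes P450, and Hdac4, a histone deacetylase, covered an annotated internal start. The regions in Plec, the cytolinker plectin, in Agpat3, a lipid acyltransferase, in Nfia and in Zswim6 covered none.

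Strong regions could also be missing in a single list. The regions with the highest mean percentile that young replicate 2 alone did not call lay in Heg1, an endothelial receptor gene, Lemd1, a gene of a LEM-domain protein, and Sgms1. The Heg1 region (chromosome 16, 33751196 to 33751998) ranked at 99.6, 99.7 and 99.97 in the aged lists and at 99.5 and 99.1 in young replicates 1 and 3. The regions that aged replicate 3 alone did not call lay in Ppm1h, a protein phosphatase, Pde4d and Sh3gl1, an endocytic adaptor. The Ppm1h region (chromosome 10, 122815079 to 122815564) ranked at 99.2 and 97.8 in aged replicates 1 and 2 and at 98.3, 99.4 and 96.4 in the young lists. Those missing in aged replicate 1 alone lay in Abcc4, Efna5 and Mgat5, and in aged replicate 2 alone in Ptpn12, Pde3b and Phf24. Those missing in young replicate 1 alone lay in Apobec2, Cmah and Fcho2, and in young replicate 3 alone in Dst, Pcmtd1 and Pde2a. Their mean percentiles ran from 72.0 (Phf24) to 99.6 (Heg1).

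Hosts were many and most held 1 region. The 4253 regions lay in 2626 hosts, which were 19.9% of the 13174 autosomal protein-coding genes with any sequence over 5 kb from all gene ends (eligible genes). Of the hosts, 1717 (65.4%) held 1 region, 494 held 2, 237 held 3 and 102 held 4. The 76 hosts with 5 or more held 461 regions. Of the regions, 4222 lay in 1 gene body, 30 in 2 and 1 in 3.

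The share of genes that were hosts and the density of regions depended differently on length. Hosts had a median length of 81.5 kb, against 28.3 kb for eligible genes without a region. The share of genes that held a region was 3.53% where under 10 kb was eligible and 59.7% where over 500 kb was. The density was 0.844 regions per 100 kb of eligible sequence in genes with under 10 kb of it, 0.918 in those with 10 to 25 kb and lower in each longer group, down to 0.168 in those with over 500 kb. Over all genes it was 0.520. By chromosome it ran from 0.351 per 100 kb on chromosome 1 to 0.714 on chromosome 11. A count of regions per gene therefore has to be read beside the gene's length.

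Gse1, whose protein is found with a histone deacetylase complex, held the most regions of any gene. Its 21 regions (11 called in all 6 lists) spread over 288.7 kb of a 352.9 kb gene on chromosome 8, from 48.1 to 335.4 kb from the annotated 5′ end, at 6.13 per 100 kb. The strongest by mean percentile (120368748 to 120369281) ranked at 98.9, 99.2 and 96.7 in the aged lists and 97.1, 96.6 and 96.6 in the young ones. The next regions on its 3′ side were nearly as strong in most lists. The one at 120369862 to 120370429 ranked at 98.4, 96.4 and 98.3 in the aged lists and 98.1, 31.2 and 97.5 in the young ones, so that young replicate 2 alone was low. The one at 120371683 to 120372181 ranked at 98.4, 96.4 and 97.2 in the aged lists and 98.3, 96.6 and 97.5 in the young ones. The weakest of the 21 (120510891 to 120511383) ranked at 94.8, 73.5 and 34.6 in the aged lists and at 40.5 and 99.1 in young replicates 1 and 2, and young replicate 3 did not call it. Of the 10 Gse1 regions called in 5 lists, 5 were missing in aged replicate 3, 4 in young replicate 2 and 1 in young replicate 3.

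**Figure D2:**
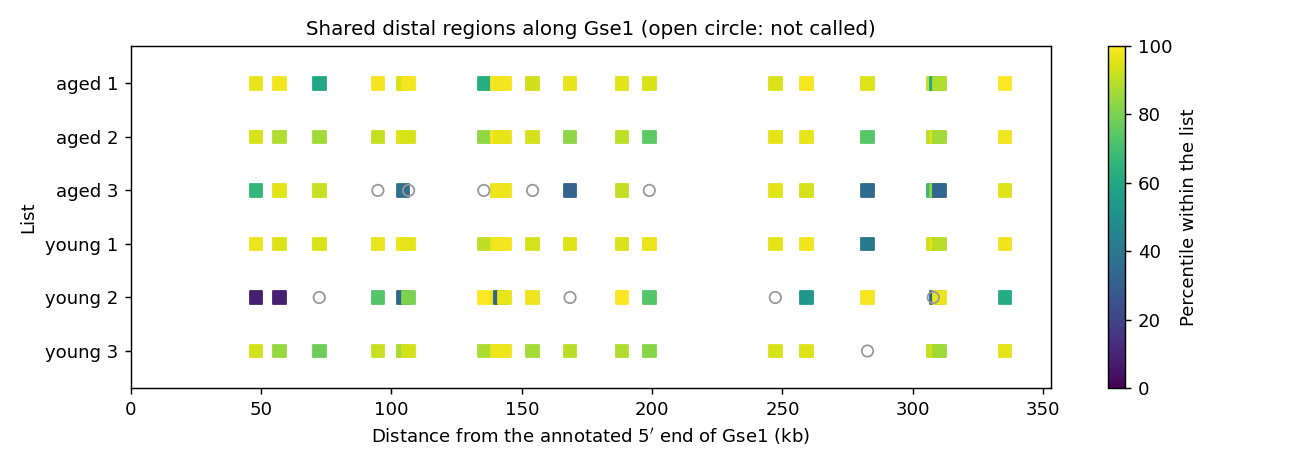
The 21 shared gene-body regions of Gse1 by distance from its annotated 5′ end (x axis, kb) in the 3 aged lists (upper rows) and the 3 young lists (lower rows). Squares are coloured by percentile within the list, and open circles mark regions the list did not call. The open circles lie in aged 3, young 2 and young 3.

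The hosts that came next by count held 7 to 11 regions each. Pde4d, a phosphodiesterase that degrades cAMP, held 11, Hivep3, a zinc-finger factor, held 10, and Nav2, Arhgef3 and Sgms1 held 9 each. Arhgef3 encodes an exchange factor for small GTPases and Sgms1 a sphingomyelin synthase. Ssh2, a phosphatase of the actin regulator cofilin, Zmiz1, a transcriptional coactivator, and Prkce, a protein kinase C, held 8 each, and Bach2, Prkag2, Igf1r, Zfhx3, Smad3 and Snx29 held 7 each. Without aged replicate 3 and without young replicate 2, Pde4d held 20 and 22, Zmiz1 14 and 14, Prkce 14 and 14, Zfhx3 14 and 13 and Snx29 13 and 13, while the other hosts named here moved by less than 1.5 times. Pde4d spans 1302 kb, so its 11 regions came to 0.852 per 100 kb, and Zfhx3 reached 1.04. The densest host with 5 or more regions was Csk, the kinase that holds Src-family kinases inactive, with 5 regions in 17.0 kb of eligible sequence or 29.4 per 100 kb. Next were Cuedc1 (7.06), Nfix (6.93), Smad3 (6.92), Ttc7 (6.74), Snx30 (6.70), Arhgap23 (6.58), Stk10 (6.15), Gse1 (6.13) and Tbc1d14 (5.84).

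The Csk regions differed in strength. The one at 57640364 to 57640909 on chromosome 9 ranked at 94.9, 92.1 and 97.0 in the aged lists and 97.2, 97.2 and 95.4 in the young ones. The one at 57643793 to 57644116 was not called in aged replicate 1 and ranked at 81.1 and 93.4 in aged replicates 2 and 3, and at 40.3, 13.7 and 71.9 in the young lists. The first was thus high in each list, and the second lay between 13.7 and 71.9 among the young lists.

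Neighbouring regions of 1 gene mostly lay kilobases apart. Between consecutive regions of a host there were 1659 gaps in 909 genes, with a median of 17.6 kb (quartiles 6.84 and 45.6 kb). In all, 303 gaps (18.3%) were within 5 kb and 88 within 1 kb.

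The gene lists below were drawn up from textbook roles, with earlier results of these data known, and are described by counts. They are set beside the 19.9% of eligible genes that host a region and the density of 0.520 per 100 kb over all eligible genes. Transcription factors of stem and progenitor cells stood well above these figures: 29 of 36 eligible genes (80.6%) were hosts, with 85 regions at 1.37 per 100 kb. Meis1, Nfia and Nfix held 6 each, Runx1, Etv6 and Rora 5 each, Prdm16, Foxp1, Zfpm1, Zbtb16, Erg and Runx2 4 each, Mecom and Fli1 3 each, and Runx3, Zeb2, Ets1 and Tcf4 2 each. Tal1, Myb, Bcl11a, Ikzf1, Lmo2, Spi1, Foxo1, Foxo3, Elf1 and Hmga2 held 1 each. The eligible genes without one were Gata2, Hlf, Gfi1b, Ikzf2, Nfe2, Tcf12 and Ikzf3, and Lyl1, Gfi1, Cebpa and Nkx2-3 had no eligible sequence. These genes are longer than most, with a median of 108.2 kb of eligible sequence against 23.0 kb over all eligible genes.

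Runx1 held a region at its proximal promoter and others around it. The proximal promoter region (chromosome 16, 92697190 to 92697609), whose window is printed above, ranked at 97.0, 91.6 and 35.0 in the aged lists and at 91.0 and 86.4 in young replicates 1 and 3, and young replicate 2 did not call it. A neighbour at 92696587 to 92696956 ranked at 94.8 and 83.4 in aged replicates 1 and 2 and at 89.2, 61.5 and 69.4 in the young lists, and aged replicate 3 did not call it. The strongest lay toward the 3′ end of the gene (92620713 to 92621588) and ranked at 99.1, 96.9 and 94.3 in the aged lists and 97.7, 99.4 and 93.6 in the young ones. A pair lay 24834 and 23878 bp inside the end with the distal promoter, where a blood enhancer of Runx1 has been described. The one at 92800825 to 92801240 ranked at 90.8, 96.5 and 95.6 in the aged lists and 97.8, 99.8 and 90.4 in the young ones. The one at 92801516 to 92802196 ranked at 99.6, 98.1 and 93.5 in the aged lists and at 98.5, 1.996 and 96.6 in the young ones. It was high in 5 lists and near the bottom of young replicate 2.

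Meis1, a homeobox factor that stem cells need, held 6 regions of unequal strength. The region at 18924670 to 18925423 on chromosome 11 ranked at 99.6, 94.1 and 95.5 in the aged lists and 98.6, 96.9 and 96.6 in the young ones. The one at 19007621 to 19008487 ranked at 87.6, 27.8 and 75.7 in the aged lists and 49.2, 42.7 and 71.0 in the young ones, so that called-in-6 regions of 1 gene spanned strong and weak peaks. Of the others, 3 were missing in aged replicate 3 and 1 was called in each list. Nfia, a nuclear factor I gene, held the highest-ranked region of this list (chromosome 4, 97772058 to 97772577), at 99.5, 99.1 and 99.4 in the aged lists and 99.9, 99.6 and 99.3 in the young ones. It lay 193992 bp from the nearest gene end.

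The regions of the ETS factors Erg, Fli1, Ets1, Etv6 and Elf1 ranged widely. Ets1 held a pair called in all 6 lists, and the stronger (chromosome 9, 32672113 to 32673011) ranked at 98.7, 96.6 and 96.8 in the aged lists and 99.3, 97.6 and 95.9 in the young ones. The internal start of Erg (95459269 to 95459706) ranked at 97.4 and 87.4 in aged replicates 1 and 2 and at 80.3, 61.5 and 90.04 in the young lists, without a call in aged replicate 3. None of the 3 Fli1 regions was called in aged replicate 3, and each ranked at 61.5 in young replicate 2, a tied value. The end of Erg, Fli1 and Ets1 had no shared gene-end region, although all 3 were hosts. The lowest mean percentile of the 85 regions belonged to the internal start of Mecom, which encodes the EVI1 factor and ranked at 58.3, 59.9 and 20.1 in the aged lists and at 49.2 and 44.9 in young replicates 1 and 3.

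**Figure D3:**
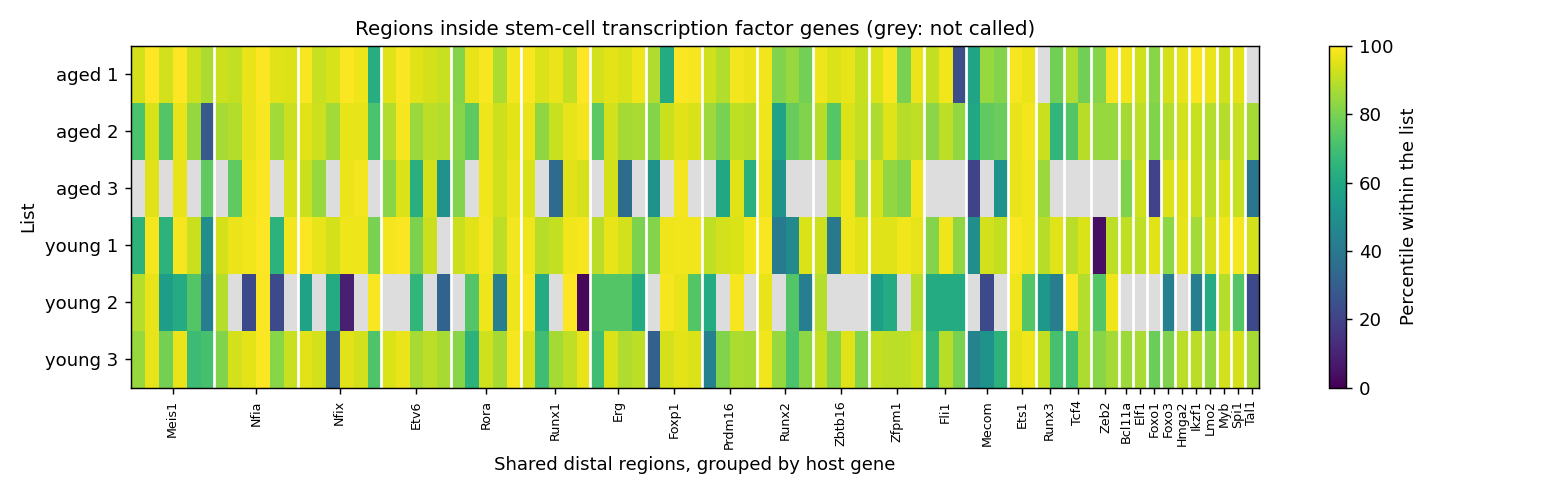
Percentile within each list (colour) of the shared gene-body regions inside the stem-cell transcription factor genes named here, with 1 column per region grouped by host and 1 row per list, aged above young. Grey cells were not called and lie mostly in the aged 3 and young 2 rows.

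Receptor and adhesion genes of stem cells hosted regions in 12 of 27 eligible genes (44.4%), at 1.13 per 100 kb. Flt3, whose product Flk2 the sort selected against, held 3 regions, all missing in young replicate 2 and called in the 3 aged lists. The strongest (chromosome 5, 147366338 to 147366918) ranked at 88.9, 92.6 and 88.1 in the aged lists and at 97.6 and 96.6 in young replicates 1 and 3. Kit, the receptor used in the sort, held 1 (75623773 to 75624781), at 93.4, 84.0 and 61.2 in the aged lists and at 81.0 and 73.5 in young replicates 1 and 3. Angpt1, a ligand of the receptor Tek, and Itgb3, an integrin, held 3 each. Over the lists that called them, the mean percentile was 78.6 for the Kit region and 75.03 to 92.8 for those of Flt3.

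Signalling genes were hosts more often than eligible genes at large. In the list of cytokine, JAK-STAT and RAS signalling 17 of 32 (53.1%) were hosts at 1.28 per 100 kb, led by Prkce with 8 and Pik3cd, a catalytic subunit of PI3 kinase, with 4. In TGF-beta and BMP signalling 10 of 19 (52.6%) were hosts at 1.66 per 100 kb, led by the signal transducer Smad3 with 7, its corepressor Ski with 4 and the receptor Tgfbr2 with 3. The strongest Smad3 region (chromosome 9, 63706262 to 63707021) ranked at 99.3, 98.2 and 93.6 in the aged lists and 98.5, 97.6 and 97.3 in the young ones. Only 2 of the 7 Smad3 regions were called in 6 lists, and 4 of the others were missing in aged replicate 3. In the list of cell polarity, GTPases and cytoskeleton 22 of 30 (73.3%) were hosts at 0.991 per 100 kb, led by Arhgef3 with 9 and Elmo1, an engulfment and motility factor, with 6. These last genes are long, with a median of 145.1 kb of eligible sequence. The median was 67.5 kb in the list of cytokine, JAK-STAT and RAS signalling and 60.7 kb in that of TGF-beta and BMP signalling. Of all genes with 50 to 100 kb of eligible sequence, 31.6% were hosts, at 0.688 per 100 kb. With 100 to 200 kb, 45.2% were, at 0.603 per 100 kb.

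Chromatin regulators included Dnmt3a, the DNA methyltransferase mutated in clonal blood formation, with 6 regions. Its strongest (chromosome 12, 3855688 to 3856504) ranked at 97.9, 94.9 and 95.9 in the aged lists and 99.1, 97.6 and 94.6 in the young ones. In this list 19 of 40 eligible genes (47.5%) were hosts at 0.842 per 100 kb, and Tet2, Ezh2, Asxl1 and Kmt2a held none. The list had a median of 78.3 kb of eligible sequence. Cell cycle genes hosted regions in 4 of 16 (25%) at 0.595 per 100 kb, near the figures for all genes: Ccnd3 held 3, Cdk6 and Cdk14 2 each and Rbl2 1. The cell cycle list had a median of 41.6 kb of eligible sequence. Of all genes with 25 to 50 kb, 20.6% were hosts, at 0.777 per 100 kb. Genes described elsewhere with more RNA in aged stem cells had a median of 46.8 kb. They hosted regions in 10 of 24 (41.7%) at 0.684 per 100 kb. Among them the adhesion gene Selp held 1 (chromosome 1, 164135237 to 164135956), which ranked at 99.8, 99.6 and 98.2 in the aged lists and 99.3, 99.8 and 98.4 in the young ones. It was thus near the top of each list at both ages.

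Marker genes of other cell types were hosts to unequal degrees. In T and NK cell genes 8 of 14 (57.1%) were hosts at 1.27 per 100 kb, while 1 of the 14 had a shared region at an end. Gata3, Skap1 and Cd247 held 3 each, and the strongest in Gata3 (chromosome 2, 9879382 to 9879905) ranked at 98.4, 95.5 and 99.2 in the aged lists and 98.0, 22.4 and 97.7 in the young ones. Megakaryocyte and platelet genes were hosts in 6 of 10 (60%) at 1.92 per 100 kb, with 3 regions each in Itgb3 and Tbxas1 and 2 each in Vwf and Rab27b. Erythroid genes gave 3 of 10 (30%), endothelial and stromal genes 4 of 15 (26.7%), B cell genes 2 of 9 (22.2%) and mast cell, basophil and eosinophil genes 1 of 7 (14.3%), which was Kit. None of the 8 eligible myeloid genes was a host, but they are short, with a median of 14.5 kb of eligible sequence and 269.2 kb in total. Of all genes with 10 to 25 kb of eligible sequence, 13.2% were hosts, so 0 of 8 says little. The part of other cells in these regions was not tested. Long genes of neurons were hosts in 14 of 30 (46.7%), but at 0.0518 per 100 kb, with a median eligible length of 1131 kb. All genes with over 500 kb of eligible sequence had 0.168 per 100 kb.

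**Figure D4:**
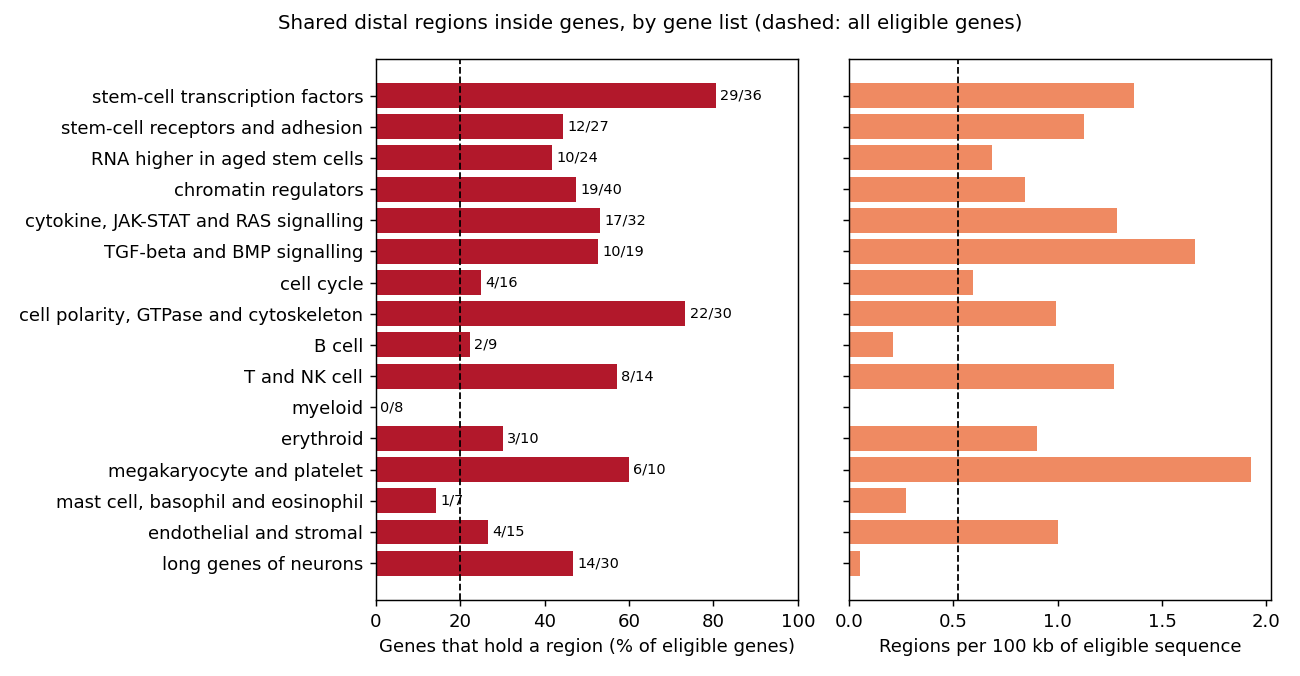
Share of eligible genes that hold a shared gene-body region (left, with hosts/eligible genes) and regions per 100 kb of eligible sequence (right) for 16 gene lists. Dashed lines mark all eligible genes (19.9% and 0.520), and stem-cell transcription factors reach 80.6% and 1.37.

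A host did not always have an open end. A shared region within 1 kb of either end was called at 1461 of the 2626 hosts (55.6%) and at 53.1% of the 10548 other eligible genes. With 200 to 500 kb of eligible sequence these shares were 54.5% and 34.3%, and with over 500 kb they were 33.3% and 13.3%. Among the shorter genes the shares lay closer together, at 56.0% and 55.3% with 10 to 25 kb of eligible sequence.

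Within genes, the regions lay nearer the 5′ end. Of the 3372 regions in 1 gene with a known strand, 1886 (55.9%, 95% Wilson interval 54.2 to 57.6) lay nearer the 5′ end, against 49.0% of 207683 regions of the same position called in 1 list and 50.03% of eligible sequence. The density was 0.957 per 100 kb at 5 to 10 kb from the 5′ end and 0.604 at 5 to 10 kb from the 3′ end. Over 100 kb from an end it was 0.305 and 0.335. Regions called in 1 list were even along genes, at 31.2 to 33.6 per 100 kb. Without the regions at internal starts, 53.9% lay nearer the 5′ end and the densities at 5 to 10 kb were 0.709 and 0.541. Wilson intervals cover counting error only.

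**Figure D5:**
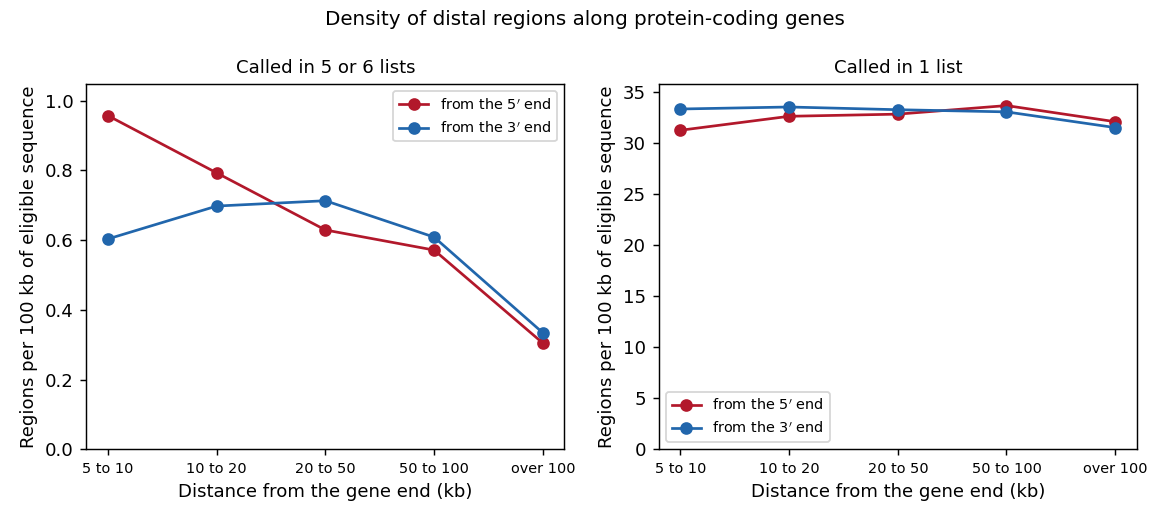
Density of gene-body regions per 100 kb of eligible sequence (y axis) by distance from the annotated 5′ end (red) and 3′ end (blue), for regions called in 5 or 6 lists (left) and in 1 list (right). At 5 to 10 kb the left panel shows 0.957 from the 5′ end and 0.604 from the 3′ end, while the right panel is nearly flat.

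The last question was whether ranks differed with age. The gap between gene-body and gene-end regions was -6.21 ± 3.52 percentile points in aged lists and -5.96 ± 2.55 in young lists (SD, n = 3 each), a difference of -0.244 (exact 2-sided permutation p = 1, where 3 against 3 cannot go below 0.1). The summit offset was 33.3 ± 9.50 bp in aged lists and 46.2 ± 28.4 bp in young lists, a difference of -12.8 bp (exact permutation p = 0.7). The difference in the gap was smaller than the SD of either age. That in the offset was larger than the aged SD and smaller than the young one.

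Single regions were compared by limma on normal scores of the ranks among the 9376 regions of all classes called in 6 lists, 1562 of them gene-body regions. No region of any class passed an adjusted p of 0.05 (0% of 9376), and the smallest adjusted p among gene-body regions was 0.947. At an unadjusted p under 0.05 there were 83 gene-body regions (5.31%), 39 higher and 44 lower in aged lists, against 3.87% of all 9376. Their number was 38 without aged replicate 1, 51 without aged replicate 3 and 137 without young replicate 3, and no adjusted p passed in any of these fits. The 3 aged ranks lay above the 3 young ones in 69 gene-body regions (4.42%, against 4.98% of all) and below them in 71 (4.55%, against 4.68% of all). These shares are near the background.

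Gene-body regions whose aged and young ranks did not overlap were ordered by unadjusted p. The smallest lay in Fabp12, Inpp4b and Pde4b on the aged side and Tex9, Psma6 and Kansl1 on the young side. Fabp12 encodes a fatty acid binding protein, and its region (chromosome 3, 10258123 to 10258711) ranked at 85.8, 66.7 and 63.1 in the aged lists and 3.73, 14.7 and 26.7 in the young ones, on a scale of 100 among the 9376 regions. That the ages did not overlap was fixed by this choice. The difference was 1.76 ± 0.451 in normal score (SE; limma adjusted p = 0.947). Tex9, a testis-expressed gene, had a region (chromosome 9, 72491503 to 72492247) at 13.5, 7.58 and 2.55 in the aged lists and 69.5, 79.5 and 28.0 in the young ones, a difference of -1.75 ± 0.472 (limma adjusted p = 0.947). Neither is a call after adjustment.

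How far ranks agreed between lists depended more on the list than on the age. Over the 1562 gene-body regions called in 6 lists, Spearman's rank correlation was 0.213 to 0.875 between an aged and a young list (9 pairs, median 0.602), 0.553 to 0.703 between aged lists and 0.297 to 0.768 between young lists. The highest, 0.875, was between aged replicate 2 and young replicate 3. The low values came from 1 list: pairs with young replicate 2 ran from 0.213 to 0.314, and pairs without it from 0.544 to 0.875. These are descriptions over regions that share sequence and mappability, with no test.

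Gene-body regions overlapped 2 miRNA hairpins of the RefSeq table. One was Mir33 in Srebf2, where the host regulates cholesterol synthesis and the miRNA is known to act on cholesterol export, and the other was Mir7687 in Gse1. The Srebf2 region (chromosome 15, 82198182 to 82198796) ranked at 97.6, 93.0 and 63.3 in the aged lists and 94.7, 99.6 and 90.3 in the young ones. It covered only the 3′ end of the Mir33 hairpin (82198122 to 82198190). The Mir7687 hairpin (chromosome 8, 120538696 to 120538754) lay wholly inside its region (120538582 to 120539123). The mature sequences are given with the seed, bases 2 to 8, in capitals.
mmu-miR-33-5p: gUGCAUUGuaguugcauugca
mmu-miR-33-3p: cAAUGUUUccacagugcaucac
mmu-miR-7687-5p: aGGCGGGGaaccugaggcgcaggcu
mmu-miR-7687-3p: cCACUCAGucgccccgccaca
Open DNA at a hairpin is no measure of the miRNA itself.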

How the data were processed

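ATAC-seq peak lists of 3 aged and 3 young samples of long-term haematopoietic stem cells were used, 1 list per sample, grouped by sample titles. The titles also carry numbers (10000, 2500 and 5000 for aged replicates 1 to 3; 2385, 2500 and 5000 for young replicates 1 to 3) and a number after "exp" that is 2, 5 and 3 for replicates 1 to 3 at both ages. The labels explain neither, and if the second marks a shared experiment, same-numbered lists are pairs. The submitters' processing notes name the mm10 build and, among the tools, MACS2, Picard, SAMtools and Bowtie2. Versions, settings and any read shift for the transposase are not given in the sources used here. The deposited lists are in the narrowPeak layout of MACS2 and were called per sample. Each peak has a deposited score, a deposited fold enrichment (a ratio to background), a deposited −log10 p and −log10 q, and a deposited summit position. These are the authors' own values, and they depend on read depth, which is unknown. They served to rank or filter peaks within a list.

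Repeated intervals were joined, and peaks of chromosomes 1 to 19 were merged over lists at 1 bp of overlap. Genes came from the RefSeq table on GRCm38.p6, strands and start windows from RefSeq promoter sequences of the same assembly, which cover part of the genes. The members and gene lists were chosen with earlier results of these data known. Named genes were the 15 hosts with most regions, the 10 densest hosts with 5 or more regions, the 10 regions with the highest lowest percentile, the 3 regions missing in each list alone with the highest mean percentile, the 5 widest regions, the 6 leading hosts of each gene list, and every stem-cell transcription factor gene. A single gene among those counts in its list but is not reported here by name. Further list genes, and the genes of the age comparison, were named after their values were seen. Motifs were searched in start windows, since no genome sequence was used here. Class differences per list were tested by exact 2-sided sign-flip permutation over 6 lists and age differences by exact 2-sided permutation of 3 against 3. The age comparison of single regions (limma 3.58.1 in R 4.3.3, normal scores of ranks) and the tests of internal starts were added after values were seen. Scripts used Python 3.11.15, pandas 2.3.3 and SciPy 1.17.1, and the counting and fits were tested on simulated data.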

Additional observations from a re-analysis of the deposited data

Results flagged for a closer look

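Chromosome X was outside the comparisons above, and it also held shared distal regions inside genes, more than the 3 that would mark the limit of a count of 0. By the same rule there were 59, of which 23 were called in all 6 lists. They lay in 48 of 563 eligible protein-coding genes (8.53%), against 19.9% of eligible autosomal genes. The density was 0.154 per 100 kb of eligible sequence on X and 0.520 on the autosomes. The labels do not give the sex of the animals.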

How the results depend on the processing

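The number of gene-body regions followed how calls were counted. It was 2762 with peaks at q of at most 0.05, 1383 where peaks had to cover at least 50% of a region, 1562 in all 6 lists, 6667 in the 4 lists with high rates of calling (chosen after seeing the data), and 4428 to 7619 without 1 list. The highest came without aged replicate 3 (7619) and without young replicate 2 (7428). Hosts numbered 1119 with the 50% cover, 1268 in all 6 lists and 2712 to 3795 without 1 list. Single hosts followed: Gse1 held 9 to 30 regions, Pde4d 2 to 22, Nav2 1 to 13 and Prkag2 0 to 10, the lowest with the 50% cover or, for Prkag2, in all 6 lists. The share of hosts was 50% to 88.9% among stem-cell factor genes and 13.3% to 63.3% among long genes of neurons. The lower percentile and width against gene ends held their sign in each alternative (-9.55 to -5.34 points and -182 to -124 bp; -7.98 to -5.78 points and -182 to -132 bp without 1 list), with adjusted p of 0.0938 to 0.375. Small differences changed sign, and the cause was not tested. The summit offset against gene ends was -1.25 bp at q of at most 0.05 and -4.25 bp with the 50% cover. Against regions outside genes, the offset was -0.208 bp with the 50% cover and -0.85 to 0.9 bp without 1 list. The width there was -1.25 bp in all 6 lists, -0.333 bp for regions of at most 1000 bp and 1 to 4.4 bp without 1 list. The percentile there was -0.102 when ranked by fold and -0.00411 to 0.340 without 1 list. The age difference of the percentile gap was 5.86 at q of at most 0.05, 7.32 with the 50% cover, 4.11 in all 6 lists, 2.42 when ranked by fold and -2.94 to -0.601 without 1 list. That of the offset was -23.3 to 3.38 bp without 1 list. Over gene-body regions, same-numbered aged and young lists had correlations of their deviations from the age means of 0.0916, -0.14 and -0.114 (replicates 1 to 3), and only the replicates 1 correlated best with each other. Same-numbered lists also share the number after "exp" in their titles, which the labels do not explain, so whether they are pairs is not settled. With the replicate block the exact sign-flip permutation p-values for age were 1 and 0.75, where 3 pairs cannot go below 0.25. The block called 0 regions by limma. At an unadjusted limma p under 0.05 it gave 72 gene-body regions (4.61%, against 3.70% of all 9376). The internal-start differences passed 0.05 (adjusted exact permutation p = 0.0469) at q of at most 0.05 for width and offset, and with the 50% cover for percentile and width. Their width difference is partly given by how the regions were grouped. Read depth is unknown and limits each list.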
